A study of Mus musculus with 6 samples.

Results

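The chemokine gene Ccl21a, its near-identical copies Gm21541 and Gm13304, and 5 genes used as markers of lymphatic endothelium (Lyve1, Flt4, Pdpn, Nrp2 and Fxyd6) were followed through 6 libraries of mouse skeletal muscle. These 8 genes were picked by symbol out of 22036 gene rows, with earlier results of the same comparison known. Ccl21a entered because it was called in that comparison, and the markers were set beside it. For the 8 genes, values between the groups are therefore a description, with no test. All 6 libraries came from PRR14-knockout muscle taken 1 month after an adeno-associated virus was injected. In 3 libraries this virus carried MEF2C-GFP, a muscle transcription factor with green fluorescent protein, and in 3 it carried GFP alone. The labels name neither the muscle, nor the promoter in the virus, nor the strain, age or sex of the mice, and there was no wild-type or uninjected muscle. They also do not say whether replicates were separate animals, so the p-values given speak of library-to-library spread alone, which may be technical.

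CCL21 is a chemokine that lymphatic endothelial cells and lymphoid stroma make, and that draws dendritic cells and T cells bearing the receptor CCR7 into lymphatic vessels. In mice the gene was duplicated, and the copies encode proteins known as CCL21-Ser and CCL21-Leu. CCL21-Ser is known mainly from lymphoid organs and CCL21-Leu from lymphatic vessels of other tissues. In muscle, lymphatic vessels run with the blood vessels of the connective tissue. They are recognised by several markers together, since Lyve1 is also found on resident macrophages, Pdpn on fibroblasts and nerve sheath, and Nrp2 and Fxyd6 on neural and other cells.

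The libraries were Nanopore PCR-cDNA libraries with 3370833 to 3900617 listed counts and 13001 to 13637 genes detected in each. The virus-borne gene was not a clean check of the labels: Mef2c stood at 234, 196 and 371 CPM (counts scaled to a common library size, with TMM factors) in MEF2C replicates 1, 2 and 3, against 223, 261 and 236 in GFP replicates 1, 2 and 3. Prr14 had 30, 23 and 20 counts in the libraries labelled MEF2C and 11, 12 and 15 in the GFP libraries, and with no wild-type library these counts do not check the knockout. Directions below are therefore those of the libraries labelled MEF2C.

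The copies lie in a duplicated stretch of chromosome 4 (GRCm38). Ccl21a (ENSMUSG00000094686) is at 42772860 to 42773993 on the minus strand, Gm21541 (ENSMUSG00000094065) at 41903610 to 41904743 and Gm13304 (ENSMUSG00000073878) at 42114817 to 42115917, both on the plus strand. All 3 are annotated as protein-coding in GENCODE vM21. The annotated transcripts of Ccl21a and Gm21541 are 870 bases long and differ at 6 of them, an identity of 99.3%. Of these differences 2 are in the 402 coding bases, 1 is in the 5′ untranslated region and 3 are in the 3′ untranslated region. The 837 bases of Gm13304 are all contained in Gm21541, which has 33 more at its 5′ end. The coding differences are T84A and C194T, counted from 1 at the start codon with the base of Ccl21a first. The first turns codon 28 from ggt into gga, both glycine, and the second turns codon 65, tca, which encodes the serine of CCL21-Ser, into tta, which encodes the leucine of CCL21-Leu. The windows around both sites are shown because they are the only coding bases by which a read can be placed on Ccl21a rather than on a copy, with the differing base in capitals.
Ccl21a, coding bases 64 to 104: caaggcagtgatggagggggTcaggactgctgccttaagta
Gm21541 and Gm13304, coding bases 64 to 104: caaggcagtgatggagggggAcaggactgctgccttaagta
Ccl21a, coding bases 174 to 214: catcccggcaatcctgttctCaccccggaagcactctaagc
Gm21541 and Gm13304, coding bases 174 to 214: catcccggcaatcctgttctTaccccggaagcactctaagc

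The duplication takes in the sequence before the genes. RefSeq promoter entries (GRCm38.p6) were found for 7 of the 8 genes, and none was found for Lyve1. Over the 250 bases before the start site, Ccl21a and Gm13304 aligned over 249 bases and differed at 2, shown in capitals, and the entry of Gm21541 (named Ccl21d in RefSeq) differed from that of Gm13304 at 1. Both promoters are shown because both copies stood higher in the libraries labelled MEF2C.
Ccl21a, chr4:42773992-42774241, minus strand: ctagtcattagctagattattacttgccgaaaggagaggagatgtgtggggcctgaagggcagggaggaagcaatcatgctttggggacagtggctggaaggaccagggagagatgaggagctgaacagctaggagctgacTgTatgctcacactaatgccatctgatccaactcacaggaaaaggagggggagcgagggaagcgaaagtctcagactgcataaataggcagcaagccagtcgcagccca
Gm13304, chr4:42114537-42114786, plus strand: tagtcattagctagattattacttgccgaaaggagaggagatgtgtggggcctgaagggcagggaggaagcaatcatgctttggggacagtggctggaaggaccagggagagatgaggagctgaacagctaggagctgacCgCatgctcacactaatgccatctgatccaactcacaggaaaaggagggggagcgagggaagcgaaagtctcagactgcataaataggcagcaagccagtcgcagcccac
The binding motif of the MEF2 family, searched on both strands, had no match in these windows or in those of Gm21541, Flt4, Pdpn, Nrp2 and Fxyd6, and 2.92% of 32851 promoter entries held one. The absence of a match says nothing of the factor itself.

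All copies with counts stood higher in the libraries labelled MEF2C. Ccl21a had 364, 327 and 319 counts in MEF2C replicates 1, 2 and 3, against 83, 144 and 104 counts in GFP replicates 1, 2 and 3. On the normalised scale these were 94.3, 81.4 and 77.2 CPM in the libraries labelled MEF2C, against 24.6, 45.9 and 27.6 CPM in the GFP libraries. The groups were apart, with GFP replicate 2 the nearest of the controls. The log2 fold change of Ccl21a was 1.37 ± 0.21 (SE, n = 3 per group).

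Gm21541, which carries the CCL21-Leu codon, had 160, 126 and 127 counts in the libraries labelled MEF2C and 47, 72 and 60 in the GFP libraries. Its level was 41.5, 31.4 and 30.7 CPM against 13.9, 23.0 and 15.9 CPM, again with GFP replicate 2 highest among the controls and no overlap. The log2 fold change of Gm21541 was 0.98 ± 0.21 (SE). Gm13304 was sparse, with 22, 10 and 8 counts in the libraries labelled MEF2C and 5, 4 and 4 in the GFP libraries, and did not pass the filter on low counts. Its groups did not overlap either, but 2 of the 3 libraries labelled MEF2C had 10 counts or fewer.

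Summed over the 3 copies, the counts were 546, 463 and 454 in MEF2C replicates 1, 2 and 3, against 135, 220 and 168 in GFP replicates 1, 2 and 3. The summed level averaged 122 ± 16.9 CPM in the libraries labelled MEF2C and 51.6 ± 16.3 CPM in the GFP libraries (SD, n = 3 each), a ratio of 2.37. The lowest library labelled MEF2C stood at 110 CPM and the highest GFP library at 70.2 CPM. With the copies collapsed to 1 row, the log2 fold change was 1.25 ± 0.20 (SE). The values by which Ccl21a had been chosen depended on this step: the edgeR adjusted p was 0.0428 for Ccl21a counted alone and 0.0673 for the collapsed row. Ccl21a was 1 of 7 genes called among 9229 tested (0.0758%), and 1 of 3 called higher (0.0325%).

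**Figure D1:**
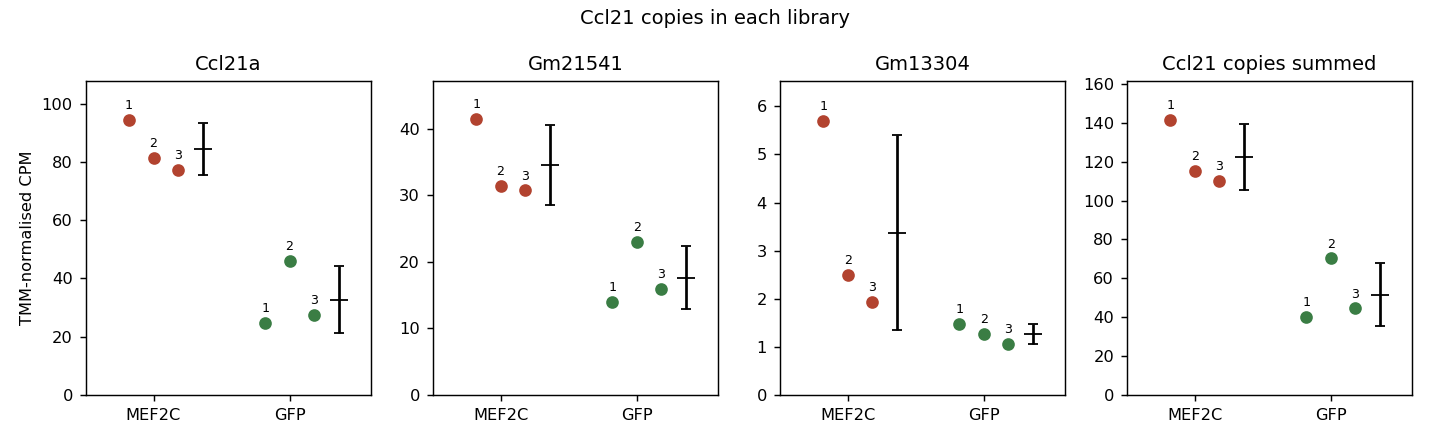
Normalised CPM (vertical axis, from 0) of Ccl21a, Gm21541, Gm13304 and their sum in each library, with replicate numbers beside the points, and the mean ± SD of each group (black bars, n = 3). The summed level lies between 110 and 141 CPM in the libraries labelled MEF2C and between 40.0 and 70.2 CPM in the GFP libraries.

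Ccl21a took the largest share of the summed counts in every library, and a larger one in the libraries labelled MEF2C. The difference in shares was not tested. Ccl21a took 66.7%, 70.6% and 70.3% of the summed counts in MEF2C replicates 1, 2 and 3, against 61.5%, 65.5% and 61.9% in GFP replicates 1, 2 and 3. Gm21541 took 27.2% to 29.3% in the libraries labelled MEF2C, against 32.7% to 35.7% in the GFP ones. The share of Gm13304 lay between 1.76% and 4.03% in the libraries labelled MEF2C, against between 1.82% and 3.70% in the GFP libraries. The shares of Ccl21a did not overlap between the groups, but the exact Clopper-Pearson 95% interval of every library labelled MEF2C overlapped that of every GFP library. The lower limits were 62.5%, 66.2% and 65.8% in MEF2C replicates 1, 2 and 3. The upper limits were 69.7%, 71.7% and 69.3% in GFP replicates 1, 2 and 3. The intervals cover counting error only, since reads amplified by PCR without molecular identifiers are not independent molecules. With 6 base differences between Ccl21a and Gm21541, how reads were placed on the copies cannot be checked from the counts, and the sum is the firmer value.

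**Figure D2:**
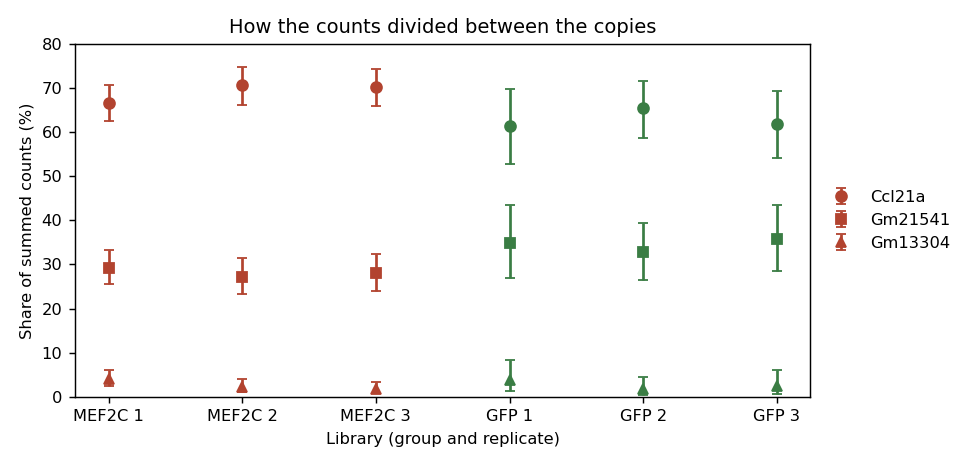
Share of the summed Ccl21 counts (vertical axis, %) taken by Ccl21a, Gm21541 and Gm13304 in each library, with exact 95% intervals. Ccl21a holds between 61.5% and 70.6% in all 6 libraries.

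Further copies are annotated in the same stretch. Ccl21b (42255767 to 42256432) and Gm10591 (42612195 to 42612860) had 0 counts in all 6 libraries, a result that leaves room for 3 counts, or 0.726 to 0.957 CPM, in a library. Their annotated transcripts hold the coding sequence alone, and all 402 bases of it are identical in Gm21541, so that these zeros do not show that the genes are silent. The copies Ccl21c and Gm1987 of the RefSeq annotation were not analysed here. The neighbouring genes of the stretch varied. Gm13305 (42158842 to 42168603) had 13, 4 and 6 counts in the libraries labelled MEF2C, against 3, 1 and 0 in the GFP libraries, without overlap and below the filter on low counts. The groups of Ccl19, Ccl27a and Il11ra1 overlapped, and Ccl27b and Il11ra2 had 0 counts throughout. Ccl19, the other ligand of CCR7, had 3, 6 and 11 counts in the libraries labelled MEF2C and 3, 6 and 9 in the GFP libraries. The skin chemokine gene Ccl27a stood at 25.0 ± 2.17 CPM against 30.5 ± 5.09 CPM (SD, n = 3 each), and Il11ra1, an interleukin-11 receptor gene, at 42.6 ± 2.51 CPM against 43.2 ± 1.25 CPM, with edgeR adjusted p of 0.930 and 0.995.

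Of the 5 markers, Lyve1 alone had groups that did not overlap. Lyve1 encodes the hyaluronan receptor of lymphatic capillaries (ENSMUSG00000030787, chromosome 7, 110850607 to 110863239). It had 127, 113 and 79 counts in MEF2C replicates 1, 2 and 3, against 39, 59 and 63 in GFP replicates 1, 2 and 3. The level was 32.9, 28.1 and 19.1 CPM in the libraries labelled MEF2C and 11.6, 18.8 and 16.7 CPM in the GFP libraries. MEF2C replicate 3 and GFP replicate 2 almost met, at 19.1 and 18.8 CPM. The log2 fold change of Lyve1 was 0.77 ± 0.24 (SE), and it lay between 0.57 and 0.96 when each library was left out in turn. In all, 4 of the 8 genes had groups that did not overlap (Ccl21a, Gm21541, Gm13304 and Lyve1), or 3 of the 7 tested, beside 11.1% of all genes tested in either direction and 5.75% higher in the libraries labelled MEF2C. As the genes were chosen on this contrast, nothing is read from that count.

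Flt4 encodes VEGFR3, the receptor of VEGFC through which lymphatic vessels grow (ENSMUSG00000020357, chromosome 11, 49609263 to 49652739). It had 10 counts in each library labelled MEF2C and 10, 5 and 11 counts in the GFP libraries. The log2 fold change of Flt4 was -0.01 ± 0.40 (SE), a standard error too wide at this depth to tell no change from a moderate one. Nrp2, a co-receptor of VEGFR3 and of semaphorins (ENSMUSG00000025969, chromosome 1, 62703285 to 62818695), had 11, 20 and 30 counts against 14, 5 and 12. Its groups overlapped, MEF2C replicate 1 lying below GFP replicates 1 and 3 on the normalised scale, and the log2 fold change was 0.75 ± 0.42 (SE).

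Pdpn encodes podoplanin, the ligand of the platelet receptor CLEC-2 (ENSMUSG00000028583, chromosome 4, 143267431 to 143299564). It had 12.2, 16.9 and 8.47 CPM in MEF2C replicates 1, 2 and 3, against 14.2, 10.5 and 15.6 CPM in GFP replicates 1, 2 and 3. The groups lay across each other, with a log2 fold change of -0.11 ± 0.27 (SE) that was 0.11 without MEF2C replicate 3. Fxyd6, a regulator of the sodium pump (ENSMUSG00000066705, chromosome 9, 45370185 to 45396159), stood at 95.6, 64.5 and 46.0 CPM in the libraries labelled MEF2C and at 59.0, 51.0 and 66.3 CPM in the GFP libraries. Only MEF2C replicate 1 lay above all GFP libraries. The log2 fold change of Fxyd6 was 0.22 ± 0.24 (SE) and was -0.10 without that library.

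**Figure D3:**
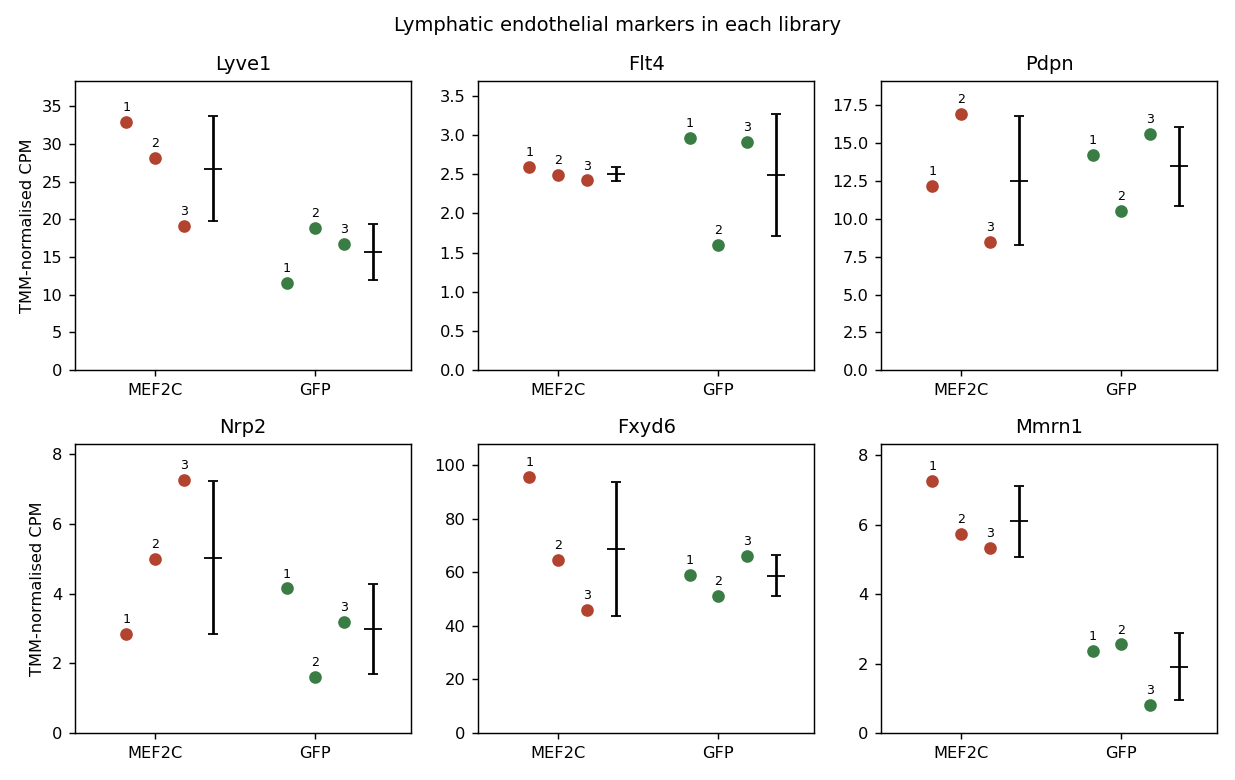
Normalised CPM (vertical axes, from 0) of Lyve1, Flt4, Pdpn, Nrp2, Fxyd6 and Mmrn1 in each library, with replicate numbers beside the points and the mean ± SD of each group (black bars, n = 3). Lyve1 and Mmrn1 have groups that do not overlap, and the groups of the other 4 genes overlap.

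The 8 genes were not equally abundant. Per kilobase of the longest annotated transcript, the mean level in the libraries labelled MEF2C was 96.9 CPM for Ccl21a, 39.7 for Gm21541, 29.1 for Fxyd6, 9.24 for Lyve1, 6.89 for Pdpn, 4.03 for Gm13304, 0.748 for Nrp2 and 0.400 for Flt4. In the GFP libraries the order of this per-length level was Ccl21a (37.6), Fxyd6 (24.9), Gm21541 (20.2), Pdpn (7.41), Lyve1 (5.42), Gm13304 (1.52), Nrp2 (0.442) and Flt4 (0.398). Within each of the 6 libraries Ccl21a was first, Gm21541 and Fxyd6 came next in either order, Lyve1, Pdpn and Gm13304 followed, and Nrp2 and Flt4 were last. Lyve1 was above Gm13304 in all 6 libraries. The order of Gm21541 and Fxyd6, of Lyve1 and Pdpn, of Pdpn and Gm13304, and of Nrp2 and Flt4 changed between libraries. In long-read data the length adjustment may be too strong, because 1 read can stand for 1 whole transcript.

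The other genes of the lymphatic list were examined to see which moved with the copies. Of the 19 that were not already described, 9 were tested, 6 had a positive log2 fold change and 0 were called by edgeR, with 2 at an unadjusted p under 0.05 (5.71% of all genes tested), 0 called by the DESeq2 Wald test and 0 by limma-voom. DESeq2 gave no adjusted p for 6 of these 9 genes, Mmrn1 among them, as for 5014 of the 9229 genes tested. Their median log2 fold change was 0.11, beside 0.01 for all genes tested. The 19 genes summed to 124, 140 and 138 CPM in MEF2C replicates 1, 2 and 3, against 137, 145 and 127 CPM in GFP replicates 1, 2 and 3. Cp, Sox18 and Itga9 had log2 fold changes of 0.48, 0.33 and 0.30. Gja4, Nr2f2, Maf and Thy1 stood at 0.11, 0.06, -0.09 and -0.22. Mmrn1 encodes multimerin-1, a secreted protein of platelets and lymphatic endothelium. It had 28, 23 and 22 counts in MEF2C replicates 1, 2 and 3, against 8, 8 and 3 counts in GFP replicates 1, 2 and 3. No library labelled MEF2C came below 5.32 CPM and no GFP library above 2.55 CPM. The log2 fold change of Mmrn1 was 1.69 ± 0.40 (SE) with an edgeR adjusted p of 0.274, so that it did not pass the test over all genes, and over the alternatives that gave one this p lay between 0.0285, with no filter on low counts, and 0.998, without GFP replicate 3.

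The defining regulator of lymphatic identity, Prox1, was at the edge of detection. It had 4, 3 and 2 counts in the libraries labelled MEF2C and 2, 4 and 2 in the GFP libraries. Of the 19 genes, 10 were below the filter, with at most 9 counts in any library, and Foxc2, a factor of lymphatic valves, was at 0 throughout. Of these 10, 8 had more summed counts in the libraries labelled MEF2C, before any scaling for library size. Prox1 was among the 8, although its normalised mean was lower there, at 0.756 CPM against 0.800 CPM. The share over all genes below the filter was not counted, so nothing is read from this tally. Pard6g, a cell polarity gene, had 5, 4 and 7 counts in the libraries labelled MEF2C and 0, 3 and 2 in the GFP libraries, without overlap. Reln, a secreted protein of collecting vessels, had 9, 6 and 7 counts against 6, 1 and 4, and Stab2, a hyaluronan scavenger receptor, had 1, 4 and 3 against 3, 5 and 3. Transcripts of genes on the lymphatic list were thus present in all 6 libraries, but counts from bulk muscle do not show which cells made them. The 10 genes below the filter had too few counts to judge a difference between the groups. For the tested genes of the list, standard errors ran from 0.16 (Maf) to 0.40 (Mmrn1), beside the log2 fold change of 1.37 for Ccl21a.

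**Figure D4:**
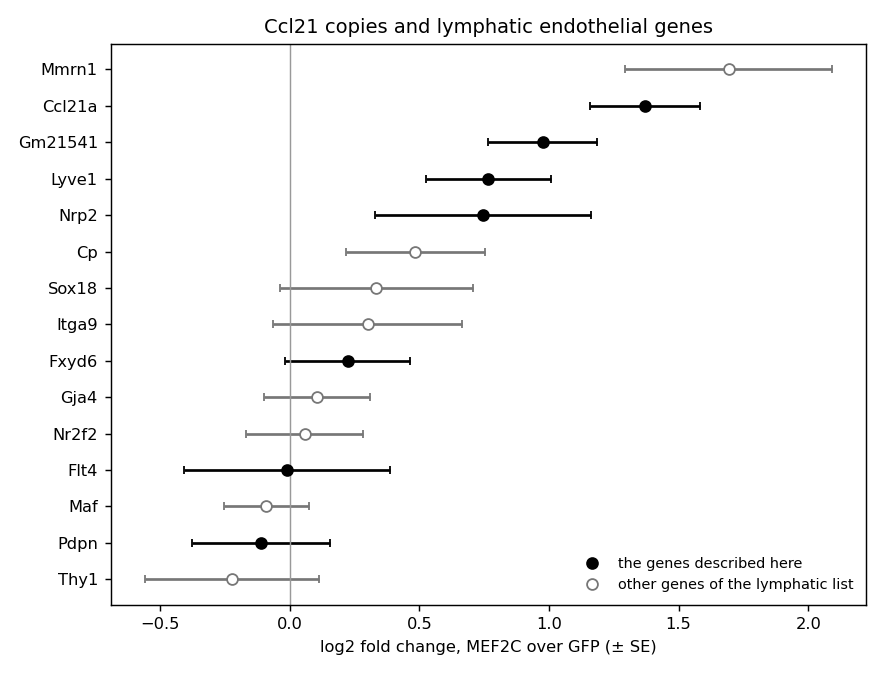
Log2 fold change of the libraries labelled MEF2C over the GFP libraries (horizontal axis, ± SE, n = 3 per group) for the tested Ccl21 copies and markers (filled) and 8 other tested genes of the lymphatic list (open). Mmrn1, Ccl21a, Gm21541, Lyve1 and Nrp2 lie highest, at 1.69, 1.37, 0.98, 0.77 and 0.75, while Flt4 and Pdpn lie at -0.01 and -0.11.

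Pathways on either side of the copies showed no called gene. As edgeR called 0.0758% of all genes tested, lists this short would seldom hold one, and nothing is read from the zeros. In the list of VEGFC and lymphangiogenic signalling, 20 of 29 other genes were tested, 9 were positive and 11 negative, 0 were called by edgeR, DESeq2 (14 without an adjusted p) or limma-voom, and 0 had an unadjusted edgeR p under 0.05. The growth factor Vegfc had 10, 16 and 7 counts in the libraries labelled MEF2C and 5, 4 and 8 in the GFP libraries. Vegfd, the second ligand of VEGFR3, stood at 4.84 ± 0.306 CPM against 4.85 ± 1.45 CPM (SD, n = 3 each). Plxnd1 and Svep1, a semaphorin receptor and a matrix protein of lymphatic growth, had the smallest p of the list, with log2 fold changes of 0.87 ± 0.45 and 0.40 ± 0.23 (SE, edgeR adjusted p = 0.928 for both).

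Receptors of CCL21 were almost undetected. Ccr7 had 4, 1 and 3 counts in the libraries labelled MEF2C and 0, 1 and 3 in the GFP libraries, and Ackr4, a scavenging receptor of CCL19 and CCL21, had 8, 6 and 5 against 2, 2 and 6. In the list of receptors and partners, 6 of 16 genes were tested, 3 positive and 3 negative, with 0 called by edgeR, DESeq2 (4 without an adjusted p) or limma-voom and 0 at an unadjusted edgeR p under 0.05. The monocyte chemokine Ccl2 and the sialyltransferase St8sia4, which modifies CCR7, stood at 0.77 ± 0.55 and 0.52 ± 0.40 (log2 fold change ± SE, edgeR adjusted p = 0.965 and 0.976).

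Endothelial genes as a whole summed to overlapping levels. The 14 pan-endothelial genes summed to 555, 505 and 525 CPM in MEF2C replicates 1, 2 and 3, against 487, 545 and 528 CPM in GFP replicates 1, 2 and 3. Their median log2 fold change was -0.05, and 0 of 14 were called by edgeR, DESeq2 (2 without an adjusted p) or limma-voom, with 0 at an unadjusted edgeR p under 0.05. Pecam1, the adhesion molecule of all endothelium, stood at 110 ± 21.8 CPM against 97.5 ± 10.1 CPM (SD, n = 3 each). Eng and Ecscr, both endothelial surface proteins, had log2 fold changes of -0.61 ± 0.30 and -0.28 ± 0.19 (SE, edgeR adjusted p = 0.904 and 0.951). Of the 13 tested blood endothelial genes 0 were called by edgeR, with 1 at an unadjusted p under 0.05. That gene was Rgcc, a cell-cycle regulator of endothelium, at 136 ± 29.3 CPM against 71.7 ± 22.9 CPM (edgeR adjusted p = 0.665, DESeq2 adjusted p = 0.0246).

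Set against the pan-endothelial counts of the same library, which needs no scaling between libraries, the copies stayed apart. The summed copies came to 25.5, 22.8 and 20.9 counts per 100 pan-endothelial counts in MEF2C replicates 1, 2 and 3, against 8.21, 12.9 and 8.43 in GFP replicates 1, 2 and 3. Lyve1 came to 5.93, 5.57 and 3.64 against 2.37, 3.46 and 3.16 on the same scale, without overlap. Flt4 came to 0.467, 0.493 and 0.461 against 0.608, 0.293 and 0.552. The summed copies also stood higher relative to Lyve1, at 4.30, 4.10 and 5.75 counts per Lyve1 count in the libraries labelled MEF2C and 3.46, 3.73 and 2.67 in the GFP libraries. In bulk tissue, more cells of a type and more RNA per cell cannot be told apart.

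**Figure D5:**
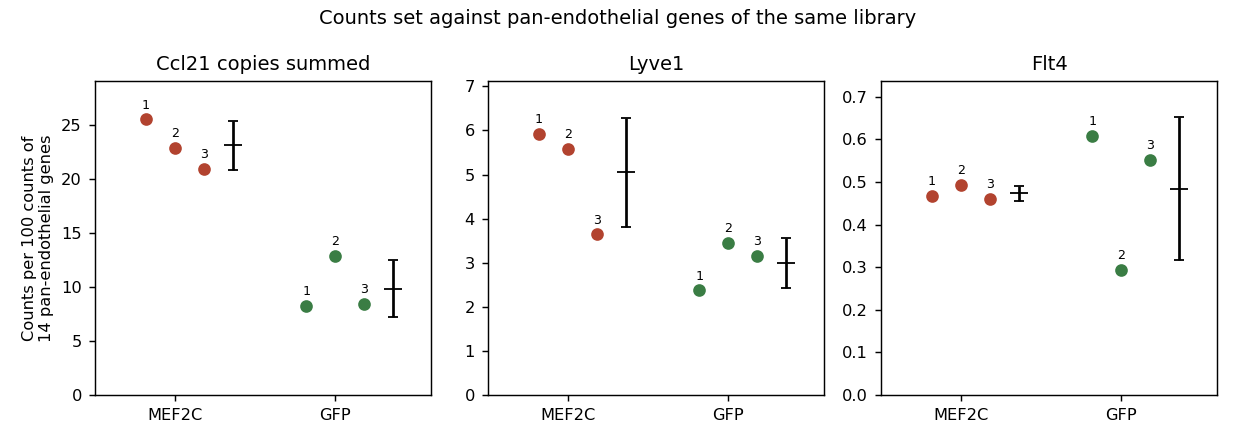
Counts of the summed Ccl21 copies, Lyve1 and Flt4 per 100 counts of 14 pan-endothelial genes in the same library (vertical axes, from 0), with the mean ± SD of each group (black bars, n = 3). The summed copies lie between 20.9 and 25.5 in the libraries labelled MEF2C and between 8.21 and 12.9 in the GFP libraries, while the Flt4 groups overlap.

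Markers of other cells that could hold these transcripts were measured beside them. Genes of lymph node stroma and high endothelial venules were nearly undetected: Glycam1, Madcam1, Chst4, Tnfsf11 and Fcer2a, 5 of the 10 listed, had 0 counts in all 6 libraries. The list summed to 11.4 to 13.2 CPM in the libraries labelled MEF2C, against 7.34 to 8.59 CPM in the GFP libraries, without overlap and mostly from Ltbp1, a matrix protein not restricted to lymph nodes (log2 fold change 0.67 ± 0.31, SE, edgeR adjusted p = 0.859). The 12 lymphocyte genes summed to 149 to 163 CPM against 92.4 to 280 CPM. Most of this was Cd74, at 109, 146 and 142 CPM in MEF2C replicates 1, 2 and 3, against 80.6, 208 and 248 CPM in GFP replicates 1, 2 and 3. The T-cell genes Cd3e, Cd3d and Cd3g had 0 to 6 counts. The B-cell gene Cd79a had 31 counts in MEF2C replicate 1 and 6 or fewer elsewhere. The tested genes of that list with the smallest p, Cd74 and Cd52, stood at -0.44 ± 0.44 and 0.04 ± 0.48 (log2 fold change ± SE, edgeR adjusted p = 0.993 and 0.997).

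Macrophage genes, which bear on Lyve1, summed to overlapping levels. The 15 genes of tissue-resident macrophages summed to 266, 368 and 378 CPM in MEF2C replicates 1, 2 and 3, against 287, 319 and 386 CPM in GFP replicates 1, 2 and 3. MEF2C replicate 1 was the lowest library for this sum and the highest for Lyve1. The genes of the list did not all follow their sum, and F13a1 was highest in that library, at 48.2 CPM. The part of macrophages in the Lyve1 values was not tested. The 14 tested members had a median log2 fold change of 0.07 with 0 called by edgeR, DESeq2 (6 without an adjusted p) or limma-voom and 0 at an unadjusted edgeR p under 0.05, where F13a1 and C1qa had the smallest p (0.34 ± 0.20 and 0.33 ± 0.23, SE, edgeR adjusted p = 0.928 and 0.960). Genes of fibroblasts, which bear on Pdpn, summed to 4233 to 5526 CPM against 4959 to 5547 CPM, with a median log2 fold change of -0.08 and Col1a1 and Pi16 at 0.29 ± 0.17 and -0.41 ± 0.27 (SE, edgeR adjusted p = 0.928 and 0.947). All 8 tested genes of the Schwann and perineurial list were negative, with a median of -0.37, and Prx and Mbp at -0.78 ± 0.34 and -0.35 ± 0.19 (SE, edgeR adjusted p = 0.856 and 0.928).

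Lists of fat, bone and blood-forming cells summed higher in some libraries labelled MEF2C, with sums that overlapped between the groups. Of 8 tested mast cell and adipose genes 7 were positive (median log2 fold change 0.70), and all 3 tested bone and granulocyte genes were positive (median 1.35). The mast cell genes Cpa3, Cma1 and Mcpt4 lay near 0, at -0.07, 0.10 and 0.04, and the tested adipose genes lay between 0.67 (Retn) and 0.94 (Adipoq). The mast cell and adipose genes summed to 511, 1412.5 and 887 CPM in MEF2C replicates 1, 2 and 3, against 430, 694 and 622 CPM in GFP replicates 1, 2 and 3, with Adipoq and Lep at 0.94 ± 0.38 and 0.73 ± 0.46 (log2 fold change ± SE, edgeR adjusted p = 0.859 and 0.936). The bone and granulocyte genes summed to 1312, 59.8 and 34.8 CPM against 35.9, 35.7 and 114 CPM, with Acp5 and Ctsk at 1.35 ± 0.77 and 0.65 ± 0.43 (SE, edgeR adjusted p = 0.930 and 0.965). The granulocyte gene S100a8 had 2173, 12 and 5 counts against 4, 6 and 137. Of the bone genes below the filter, Bglap had 20, 17 and 1 counts against 0, 0 and 0, and Dmp1 15, 3 and 3 against 1, 0 and 1, both without overlap. The groups of Phex overlapped, and Sost had 0 counts throughout. The part of these cells in the values of the copies and of Lyve1 was not tested. Across all lists, 0 of 108 tested genes outside the 8 were called by edgeR, beside 0.0758% of all genes tested. An unadjusted edgeR p under 0.05 was found for 6 of them, beside 5.71% of all genes tested. DESeq2 called 1 and gave no adjusted p for 47 of them, and limma-voom called 0. At such shares, the lack of edgeR calls in a list is not read as a result about its genes.

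The genes whose profile over the 6 libraries was most like that of the summed copies stood on none of the gene lists. Likeness was the root mean square difference between log2 profiles, each centred on its own mean, among 7132 genes with a mean of at least 20 counts. This minimum left out Mmrn1 and most other genes of the lymphatic list. That the nearest genes stood on none of the gene lists therefore says little about lymphatic genes. The nearest were Sctr, the secretin receptor gene (0.197), Chrna1, the muscle acetylcholine receptor subunit (0.219), 6430548M08Rik (0.226), Acad12 (0.249) and Nudt18 (0.281). Sctr stood at 17.6, 16.2 and 16.5 CPM in the libraries labelled MEF2C and at 6.22, 13.4 and 7.16 CPM in the GFP libraries, with GFP replicate 2 highest of the controls as for the copies. The nearest to Lyve1 were Lrg1 (0.144), Cryz (0.149), Actn2 (0.164), Hspb6 (0.164) and Vac14 (0.186). These distances rest on 6 libraries and describe them only.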

How the data were processed

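Gene counts were deposited as 1 table of whole numbers for 6 Nanopore PCR-cDNA libraries, with CPM values beside them, per the file headers. The submitters' processing notes name minimap2, DESeq2 1.6.3 and GRCm38 without giving their roles, and the counter, the use of strand and the handling of reads that match several copies are named in neither the labels nor the headers. The deposited CPM rest on totals of which the listed counts make up 95.6% to 96.4%. Deposited counts were used throughout, and 30 rows that name no gene held no counts. Reads carried no molecular identifiers.

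The 8 genes and all gene lists were chosen with earlier results of these data known. The text names every one of the 8, other Ccl21 copies, Prox1, Ccr7, Ccl19, Vegfc, Vegfd and Pecam1, per list up to 4 called genes or else the 2 with the smallest p, and the 5 genes nearest to the summed copies and to Lyve1. Further listed genes were named after their values were seen, and 1 gene of the lymphatic list is counted but not reported singly here. In the list of Ccl21 family rows, 4 (Gm13306, Gm20878, Gm21953 and Gm21586) did not align with Ccl21a and were not summed. Gm13306 stood at a log2 fold change of 0.37 ± 0.34 (SE).

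Both groups entered 1 fit in R 4.3.3 with edgeR 4.0.16 (TMM, filterByExpr, robust quasi-likelihood test, Benjamini-Hochberg adjustment over 9229 genes, threshold 0.05), checked on simulated counts. CPM in the text are on the listed totals times the TMM factors. For the sum, the copies were collapsed to 1 row before the fit. Alternatives were other scalings, filters and dispersions, limma-voom (limma 3.58.1), DESeq2 1.42.0, a replicate block and leaving out each library. Within groups, libraries differed by more than counting error, and each was kept as a separate library. As reads amplified by PCR can differ by more than that, this does not exclude technical replicates. Transcripts were those of GENCODE vM21 and promoters those of RefSeq.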

Additional observations from a re-analysis of the deposited data

How the results depend on the processing

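The summed copies kept a positive log2 fold change of 1.23 to 1.38 under other scalings, filters, dispersions, tools and sums, and of 1.08 (without GFP replicate 1) to 1.53 (without GFP replicate 2) when libraries were left out. The sum that took in Ccl21b and Gm10591 added only counts of 0, and the dispersion setting left the log2 fold change unchanged, so neither bears on its stability. The call of Ccl21a was less stable. Its adjusted p was under 0.05 in 5 of 14 alternatives and was 0.0751 with a strict filter, 0.0595 with limma-voom, 0.0780 without robust dispersion, and 0.115, 0.178, 0.0965, 0.0716 and 0.443 without MEF2C replicates 1, 2 and 3 and GFP replicates 1 and 3. Of all genes, 7 were called, against 35 with no filter, 3 with a strict filter, 27 with the DESeq2 Wald test (5014 of 9229 without an adjusted p), 3 with limma-voom and 0 without robust dispersion. Leaving out libraries gave 0 (without GFP replicate 3) to 22 (without MEF2C replicate 3), with 3, 1, 2 and 2 without MEF2C replicates 1 and 2 and GFP replicates 1 and 2. Of the listed genes outside the 8, 0 were called, against 1 with no filter (Mmrn1), 1 with DESeq2 (Rgcc), and 0 to 1 when libraries were left out, the 1 being Acp5 without MEF2C replicate 3. The cause was not tested.

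Same-numbered libraries deviated with correlations of -0.235, 0.0483 and -0.251, against -0.124 to 0.32 for the other pairs across the groups. These values gave no sign of pairing by number, but they cannot exclude it. With a replicate block, 2 genes were called, the adjusted p of Ccl21a was 0.0588 and the log2 fold change of the summed copies was 1.27.

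Of the 5 genes nearest to the summed copies, 0 were among the 5 nearest by Pearson correlation. Nrp2 lay at 0.38 without MEF2C replicate 3, and Flt4 between -0.23 (without GFP replicate 2) and 0.12 (without GFP replicate 3). Pdpn was -0.39 without MEF2C replicate 2 and Fxyd6 0.44 without MEF2C replicate 3. Counts near 10 limit Flt4, Nrp2 and Gm13304, and a strict filter removed Flt4, Nrp2 and Mmrn1.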
